A study of Mus musculus with 12 samples.

Results

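The 7 genes described here encode the Six-family homeodomain factors Six2, Six4 and Six5 and the Eya coactivators Eya1, Eya2, Eya3 and Eya4. They were taken by gene symbol, as 7 of 18193 genes named on the array, and hold 18 of its 34945 probe sets with a single gene symbol. Each gene is read from the probe set with the highest mean over all arrays, and all its other probe sets are given beside it. RNA came from the tongue of C57BL/6J mouse embryos at embryonic day 13.5, with 1 Affymetrix whole-genome array for each of 12 samples. The 6 controls were Myf5-Cre;Smad4flox/+ and the 6 mutants Myf5-Cre;Smad4flox/flox. Every embryo thus carried Myf5-Cre and at least 1 floxed copy of Smad4, and the groups differ in whether a wild-type copy was left. Cre is driven from the muscle gene Myf5, so it is meant to act in the Myf5 lineage and its descendants. Where in the tongue Smad4 was lost was not measured here. A free-text field of the labels speaks of very early embryos, which goes against the title, tissue, age and genotype given for the same samples, and was not used. The labels call the samples biological replicates but do not give litters or the number of tongues in each, so the p values measure the spread between these samples. The arrays read the whole organ, where fewer cells of a type and less RNA per cell cannot be told apart.

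Six-family proteins bind DNA, among other places at the MEF3 element of muscle promoters. Eya proteins do not bind DNA themselves but join these proteins as coactivators, and they also carry a phosphatase domain. In the embryo this pair acts upstream of and beside the myogenic factors of the Myf5 family, and it also works in kidney, ear, cranial mesenchyme and sensory ganglia. The comparison asks how these genes stand in a tongue in which Myf5-Cre targets both copies of Smad4, the shared transducer of TGF-β and BMP signals.

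RefSeq promoters (GRCm38.p6) matched 5 of the 7 genes, with 7 starts between them; Eya1 and Eya2 were not matched. The 250 bases before each start were searched on both strands for the MEF3 core TCAGGTT, the E-box CANNTG of myogenic bHLH factors and the SMAD box CAGAC. These motifs occur in 3.49%, 66.2% and 42.2% of all 32851 promoter windows of that length. Among the 7 windows, 1 held a MEF3 core, 2 an E-box and 3 a SMAD box. The SMAD boxes lay in windows of Six2, Six5 and Eya3, and the E-boxes in windows of Eya3 and Eya4. Six5 and Eya3 did not pass the test given below. The window of Six2 is shown whole because Six2 had the largest difference of the set, with its SMAD box, which reads on the reverse strand, in capitals. It lies on the minus strand at chr17:85688255-85688504, and the box begins 123 bases before the start. The MEF3 core of Six4 (chr12:73113325-73113352, minus strand) begins 97 bases before that start and also reads on the reverse strand. The E-box of Eya4 (chr10:23349930-23349957, minus strand) begins 56 bases before its start. In these shorter stretches of 28 bases the motif is in capitals. A match describes letters and is no evidence of binding.
Six2 promoter: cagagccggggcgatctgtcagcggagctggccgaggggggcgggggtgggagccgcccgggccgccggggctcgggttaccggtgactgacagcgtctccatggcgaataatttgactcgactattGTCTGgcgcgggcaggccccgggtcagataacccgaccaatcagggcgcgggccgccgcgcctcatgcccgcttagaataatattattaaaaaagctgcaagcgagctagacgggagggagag
Six4 MEF3 core: gcctgggggaAACCTGAtcggccagatc
Eya4 E-box: tgtttctccccCACTTGtgtaagctatt

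The arrays were alike as a whole, with correlations between 0.991 and 0.997. The mean lay above 6.13, the median of all probe sets, for 14 of 14 skeletal muscle and 10 of 10 oral epithelium markers. It did so for 10 of 13 cranial mesenchyme markers. Each marker is read from its brightest probe set, which makes this bar easy to pass, and the share over all genes is not given here. Other lists counted 8 of 8 (endothelium, macrophage), 7 of 7 (tendon), 5 of 5 (Schwann cell, erythroid), 8 of 9 (neuron) and 5 of 8 (cartilage). In 3 respects some arrays stood apart. On the first principal component (25.2% of the variance) mutants 1 and 2 had scores of 33.1 and 26.9, against 5.22 to 18.6 for the other mutants and −23.6 to −13.5 for controls. Control 6 and mutant 6 had the lowest 18S signal (13.5 and 13.0, against 14.0 to 14.3 elsewhere). Control 3, mutant 4 and mutant 6 carried signal of Xist and of Y-linked genes together. Smad4 read 12.16 to 12.35 in controls and 11.58 to 12.30 in mutants (−0.15 ± 0.10 SE, adjusted p = 0.427), with mutant 1 the lowest. No source used here gives the position of its probe set relative to the floxed exons, so this value does not check the genotype.

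Of the 7 genes, 3 fell in the mutant tongue and 1 rose. Six2 fell 1.90-fold, Eya2 1.69-fold and Eya4 1.36-fold, and Eya1 rose 1.47-fold. The other 3, Six4, Six5 and Eya3, did not pass an adjusted p of 0.05 over all genes. For comparison, 11.1% of all 18193 genes passed, 4.8% with lower and 6.3% with higher signal. Control and mutant values were fully separate for Six2, Eya2 and Eya4, as for 6.3% of all genes. The median difference of the 7 genes was −0.40 on the log2 scale, and that of all genes 0.01. Without mutants 1 and 2, and again without control 3, mutant 4 and mutant 6, only Six2 and Eya2 of the set passed, both lower. Without control 6 and mutant 6 the same 4 genes passed as with all arrays.

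**Figure D1:**
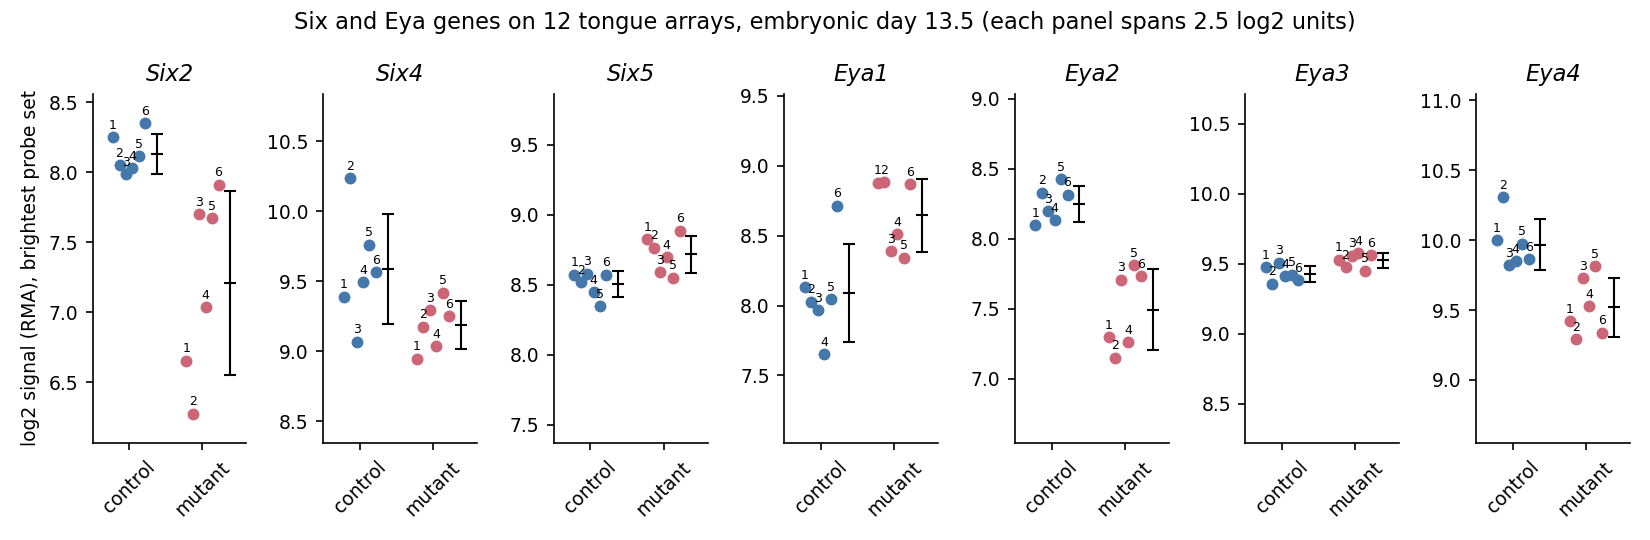
Log2 signal (vertical axis) of the brightest probe set of each gene on the 6 control and 6 mutant arrays (horizontal axis), with points numbered by replicate and black bars for the mean ± SD. The mutant points of Six2, Eya2 and Eya4 all lie below every control point, and those of Six2 are spread from 6.27 to 7.91.

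Six2, which keeps nephron progenitors undifferentiated in the kidney and is also made in craniofacial mesenchyme, had the largest difference and the widest spread. Its log2 signal ran from a lowest 7.99 through a median of 8.08 to a highest 8.35 in controls. In mutants the lowest was 6.27, the median 7.36 and the highest 7.91. Every mutant was below every control, though mutant 6 came within 0.07 of the lowest control while mutants 2, 1 and 4 lay at 6.27, 6.66 and 7.04. The mean went from 8.13 ± 0.14 to 7.21 ± 0.66 (SD, n = 6 each), a difference of −0.92 ± 0.24 (SE, 95% interval −1.43 to −0.41, adjusted p = 0.0229). The SD of the mutants was 4.62 times that of the controls, and a test that allows unequal variances gave an adjusted p of 0.114. Without mutants 1 and 2 the difference was −0.55 (adjusted p = 0.0488). The call also ended without mutant 1 (−0.81, adjusted p = 0.0563) and without mutant 4 (−0.89, adjusted p = 0.0525).

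Six4 binds the MEF3 element and overlaps in function with other homeodomain factors of its family in muscle. Its signal was 9.07, 9.53 and 10.24 (lowest, median, highest) in controls and 8.95, 9.21 and 9.42 in mutants. The groups overlapped, with 2 of 6 mutants below every control and control 3 lower than 4 of the mutants. The difference was −0.40 ± 0.15 (SE, 95% interval −0.73 to −0.07, adjusted p = 0.119). Control 2 at 10.24 and control 3 at 9.07 set the control spread (SD 0.39). Without control 2 the difference was −0.27 (adjusted p = 0.180), and without control 3 it was −0.50 and passed (adjusted p = 0.0389). Averaged over its 4 probe sets Six4 differed by −0.21 (adjusted p = 0.248). Of the other Six4 probe sets, 1439753_x_at, made from the same database sequence as the brightest, had a difference of −0.31 (adjusted p = 0.374, over all probe sets). Probe set 1425767_a_at differed by −0.16 (0.436), and the dim 1427701_a_at by 0.05 (0.876).

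Six5, the family member that neighbours the myotonic dystrophy kinase gene Dmpk, tended the other way. It read 8.35, 8.55 and 8.58 (lowest, median, highest) in controls and 8.55, 8.73 and 8.89 in mutants. All but mutant 5 were above every control. The difference was 0.21 ± 0.07 (SE, 95% interval 0.07 to 0.35), a 1.16-fold ratio, and fell just short of the threshold (adjusted p = 0.0522). Other methods on all arrays put it on either side (adjusted p of 0.0322 to 0.105). Leaving out arrays gave 0.0252 to 0.236, and without mutant 3 (0.24, adjusted p = 0.0404) or mutant 5 (0.25, adjusted p = 0.0252) it passed.

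Eya2, a coactivator made in embryonic muscle, gave the clearest fall. Its signal was 8.10, 8.25 and 8.43 (lowest, median, highest) in controls and 7.15, 7.50 and 7.81 in mutants. The groups were apart by 0.29, the widest gap of the 7 genes, and mutants 2, 4 and 1 were the lowest at 7.15, 7.26 and 7.30. The mean went from 8.25 ± 0.13 to 7.49 ± 0.29 (SD, n = 6 each), a difference of −0.76 ± 0.11 (SE, 95% interval −1.0 to −0.51, adjusted p = 0.00112). It ranked 223 of 18193 genes by p. Eya2 passed under all 24 other settings, with differences between −0.82 and −0.62. It has 1 probe set, so no second one could be compared.

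Eya4, known from hereditary hearing loss and cardiomyopathy, fell by less. Its signal was 9.82, 9.92 and 10.31 (lowest, median, highest) in controls and 9.29, 9.47 and 9.81 in mutants. The groups did not overlap, but mutant 5 at 9.81 and control 3 at 9.82 were only 0.01 apart. The difference was −0.45 ± 0.10 (SE, 95% interval −0.67 to −0.23, adjusted p = 0.0126). A second probe set, 1456665_at, fell by 0.50 and was also below every control on 6 of 6 mutants. Adjusted over all probe sets, its limma p was 0.0197, and that of the brightest was 0.0216. Probe set 1456647_a_at differed by −0.38 with overlapping groups (0.311), and the dim 1432461_at by 0.04 (0.838). Without mutants 1 and 2 the brightest differed by −0.37 (adjusted p = 0.0840).

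Eya1, whose human counterpart is mutated in branchio-oto-renal syndrome, was the only member to pass upward. Its signal was 7.65, 8.04 and 8.71 (lowest, median, highest) in controls and 8.34, 8.69 and 8.88 in mutants. The groups overlapped through control 6, which at 8.71 was above 3 of the 6 mutants, while the other 5 controls were below every mutant. The difference was 0.56 ± 0.16 (SE, 95% interval 0.22 to 0.89, adjusted p = 0.0344). Adjusted over all probe sets rather than genes, the same probe set had a p of 0.0536 and did not pass. Its other probe sets, 1421727_at and 1443117_at, both read under the median of all probe sets and differed by 0.05 (adjusted p = 0.836) and 0.19 (0.552). The call ended when any of controls 1 to 5 or mutants 1, 2, 4 and 6 was left out (differences of 0.47 to 0.58 and adjusted p of 0.0511 to 0.0815). Without control 6 it was 0.68 (adjusted p = 0.00480).

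Eya3, the most broadly made of the family, differed least. Its signal was 9.36, 9.42 and 9.51 (lowest, median, highest) in controls and 9.45, 9.54 and 9.57 in mutants, with overlapping groups. The difference was 0.10 ± 0.04 (SE, 95% interval 0.01 to 0.19, adjusted p = 0.165). Its next brightest probe set, 1420933_a_at, differed the other way, with a difference of −0.06 (adjusted p = 0.645, again over every probe set). The 2 dimmer ones differed by −0.05 and 0.02.

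**Figure D2:**
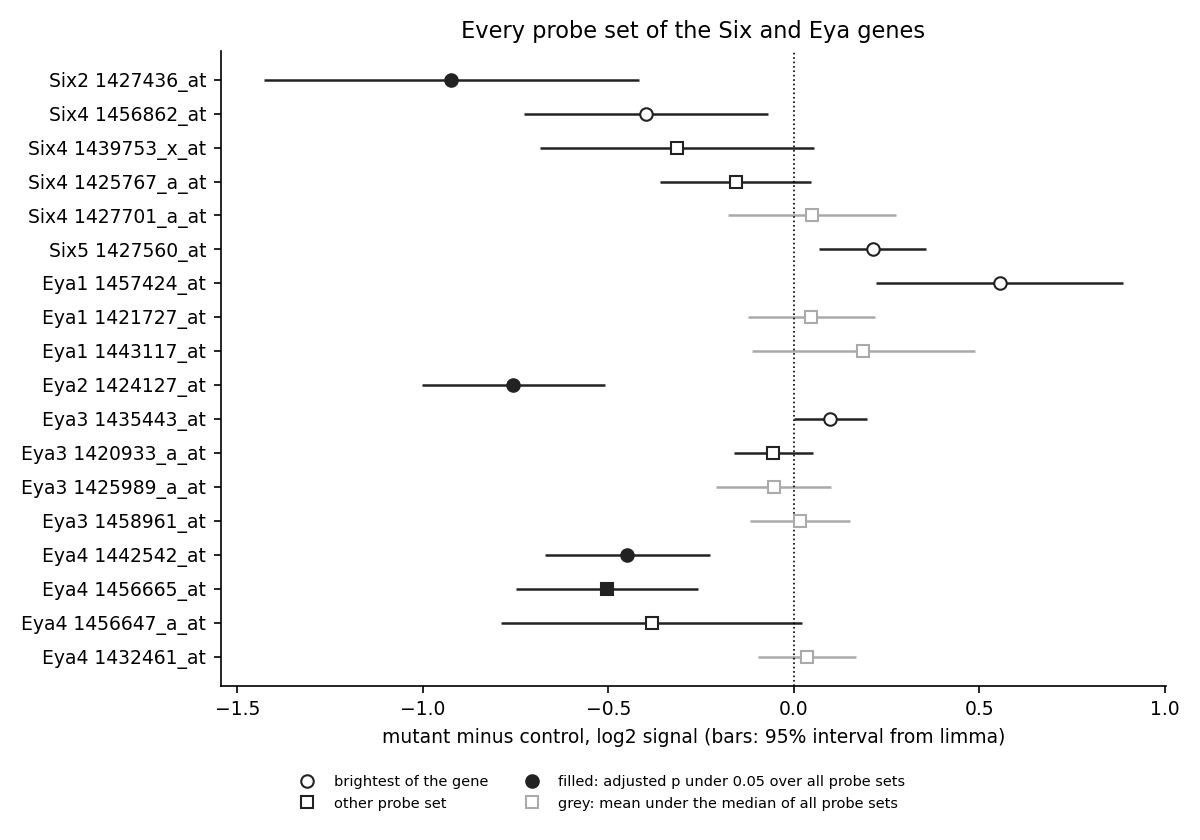
Difference between mutant and control in log2 signal (horizontal axis) for each of the 18 probe sets (vertical axis), with 95% intervals from limma; filled symbols passed an adjusted p of 0.05 over all probe sets. The 4 filled symbols, of Six2, Eya2 and Eya4, all lie below 0, and the 6 grey dim probe sets all have intervals that span 0.

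Of the 18 probe sets, 4 passed when the p values were adjusted over all 45037 probe sets, of which 5.4% passed. All 4 were lower, and all came from the 12 whose mean was above the median of all probe sets. Of the 6 dim ones 0 passed in limma, and 0 had an unadjusted p under 0.05. RMA compresses differences near background, so a dim probe set can read smaller than a bright one of the same gene.

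The falls were not even over the mutants. For Six2 and Eya2 the same arrays were farthest below the control mean: mutant 2 at −1.86 and −1.10 from it, mutant 1 at −1.48 and −0.95, and mutant 4 at −1.09 and −0.99 on the log2 scale. Mutants 3, 5 and 6 were between −0.54 and −0.22 for these genes. For Eya4 the order was another, with mutant 2 (−0.68), mutant 6 (−0.63) and mutant 1 (−0.55) lowest, and mutant 5 (−0.16) nearest the controls. For Eya1 mutants 1, 2 and 6 were 0.78 to 0.79 above the control mean, and the rest 0.25 to 0.42 above.

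Markers of other tissues moved on the same arrays. All 14 skeletal muscle markers fell, with a median of −0.66, among them Tnnc1, the slow troponin C (−0.58), and their mean per array was −0.95 to −0.48 in mutants against −0.26 to 0.12 in controls. Cranial mesenchyme went the other way, with 10 of 13 markers up and 0 down (median 0.39, with Dlx5 at 0.68), and their mean was 0.20 to 0.47 in mutants against −0.09 to 0.12. Of 9 neuron markers 8 rose and 0 fell (median of 0.75, with Snap25 at 1.51; means of 0.32 to 1.23 against −0.17 to 0.15). In oral epithelium 5 of 10 markers rose and 0 fell (median of 0.26, with Cldn4 at 0.46; means of 0.16 to 0.49 against −0.27 to 0.16). The part of these shifts in the differences of the 7 genes was not tested.

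**Figure D3:**
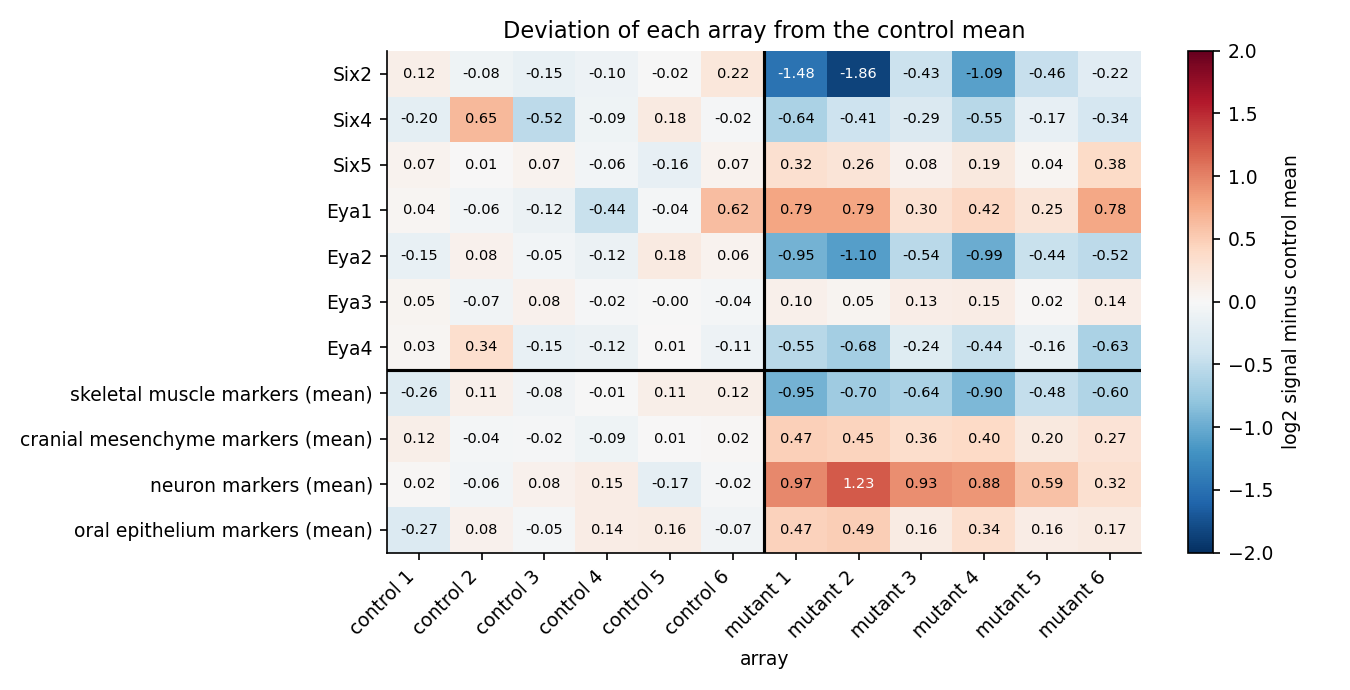
Log2 signal minus the control mean (colour and printed number) of each gene and of the mean of 4 marker lists (rows) on each array (columns). Six2 and Eya2 are lowest on mutants 1, 2 and 4, where skeletal muscle markers lie at −0.95, −0.70 and −0.90. On mutants 3, 5 and 6 these markers lie at −0.64, −0.48 and −0.60. Cranial mesenchyme (0.47, 0.45 and 0.40) and oral epithelium markers (0.47, 0.49 and 0.34) are highest on mutants 1, 2 and 4 as well. Neuron markers are not, with mutant 3 (0.93) above mutant 4 (0.88).

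The genes were next compared by how they varied around their genotype means, which removes the difference between the groups. Differences among the mutants remain. Mutants 1, 2 and 4, the lowest for Six2 and Eya2, also had the highest scores on the first principal component (33.1, 26.9 and 18.6). Whether the pairs below follow that wider difference between arrays was not tested. Over 12 arrays Six2 and Eya2 were the most alike of the 21 pairs (Pearson r = 0.85, Spearman rho = 0.86, and r = 0.76 without mutants 2 and 6). This rested on the mutants, with r = 0.94 over the 6 mutants and 0.07 over the 6 controls. Six4 and Eya4 followed (r = 0.68, rho = 0.45), and r was 0.46 without controls 2 and 3. For this pair r was 0.86 over the controls and 0.57 over the mutants. Six5 and Eya1 varied together as well (r = 0.65, rho = 0.66, and 0.67 without mutant 5 and control 5). This was stronger over the mutants (0.94) than over the controls (0.42). Six4 and Eya3 varied in opposite ways (r = −0.69, rho = −0.69, and −0.43 without controls 2 and 3), more so over the controls (−0.85) than over the mutants (−0.43). Other pairs moved when the arrays farthest out were dropped: Six4 with Eya2 went from 0.51 to 0.81, and Eya1 with Eya4 from −0.46 to −0.73, with −0.95 over the mutants and −0.05 over the controls. These values describe genes read on the same arrays with the same normalisation, and no p is attached to them.

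**Figure D4:**
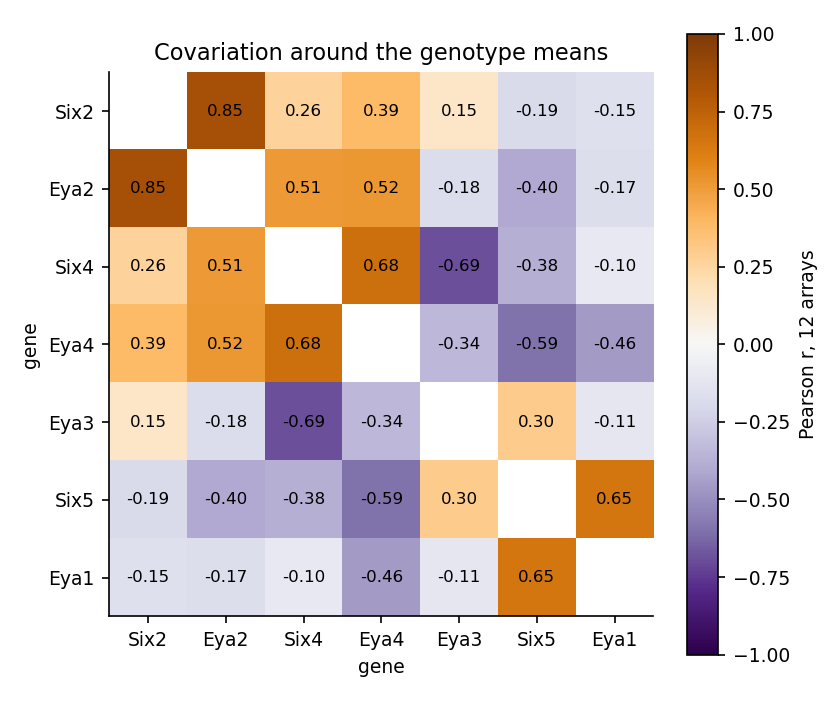
Pearson r (colour and printed number) between each pair of the 7 genes over 12 arrays, after the mean of each genotype was subtracted; both axes list the genes. Six2 with Eya2 (0.85) and Six4 with Eya4 (0.68) are the most alike, and 12 of the 21 pairs lie below 0.

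For each gene the most similar 3 of the other 18192 genes were found in the same way. Six2 was most like Myh1, a fast myosin heavy chain (r = 0.96, rho = 0.94), Paqr4 (0.96, rho = 0.92) and Nav2 (0.95, rho = 0.87). Over the mutants r was 0.97 to 0.99 for these, and over the controls 0.22 to 0.64. Myh1 itself fell by 1.44 on the log2 scale (adjusted p = 0.0152). Eya2 was most like Zfp568 (r = 0.94, rho = 0.98), Asb10 (0.93, rho = 0.95) and Ttyh2 (0.93, rho = 0.92), which fell by 0.47, 0.61 and 0.56.

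Six4 was most like the cofactor Dach1 (r = 0.94, rho = 0.85), Rai2 (0.94, rho = 0.85) and the helicase Ddx21 (0.94, rho = 0.82). Without controls 2 and 3 these r values were 0.74, 0.82 and 0.71. Eya4 was most like a dim probe set annotated to Mir133b (r = 0.92, rho = 0.88), the FGF feedback inhibitor Spry4 (0.90, rho = 0.79) and Palmd (0.88, rho = 0.68), which fell by 0.66, 0.65 and 0.93. Eya1 was most like Nkap (r = 0.91, rho = 0.83), Skil, a corepressor of SMAD proteins (0.91, rho = 0.86), and Vcan, the matrix proteoglycan versican (0.90, rho = 0.91). Vcan rose by 0.47 (adjusted p = 0.0204), Nkap rose by 0.16 (0.0404) and Skil differed by −0.08 (0.334).

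Six5 was most like Tecr (r = 0.92, rho = 0.92), Kcnmb4os2 (0.91, rho = 0.92) and the dim 5430400D12Rik (0.90, rho = 0.91). Eya3 was most like Camk1g (r = 0.94, rho = 0.94), the dim Gal3st2 (0.94, rho = 0.93) and Mettl1 (0.92, rho = 0.87). Being the top of so many genes, these r values are high by selection and are given as descriptions.

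Of 19 other genes listed for the Pax-Six-Eya-Dach network and its cofactors, 16 were measured and 12 passed in neither direction. Of the 16, 2 fell and 2 rose, while of all genes 4.8% fell and 6.3% rose. The median difference was 0.03, while the mean of the list was below 0 on all 6 mutants (−0.10 to −0.04, against −0.05 to 0.05 in controls). Pax7 set that sign: over the other 15 genes, a choice made after the values were seen, the mean was −0.04 to 0.09 in mutants, above 0 on 5 of 6, and −0.05 to 0.08 in controls. Pax7, the factor of muscle progenitors, went from 9.09 ± 0.23 to 7.73 ± 0.38 (−1.35 ± 0.16 SE, adjusted p = 0.000338) and was below every control on 6 of 6 mutants. Dach2, a cofactor that can join Eya proteins, rose by 0.32 ± 0.08 (adjusted p = 0.0263), and the Groucho corepressor Tle4 by 0.23 ± 0.06 (0.0385). The other member that fell was Sobp (−0.32, adjusted p = 0.0418), named after its value was seen. The family members Six3 and Six6, named as relatives of the 7 genes and not for their values, read under the median of all probe sets in both groups and differed by −0.12 (0.192) and −0.07 (0.665).

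Among 15 genes described as bound or regulated by this pair of protein families in muscle and other organs, 5 fell and 1 rose. Of all genes 4.8% fell and 6.3% rose. The median of the 15 was −0.07. Myf5, which these homeodomain proteins help to activate, fell by 1.81 ± 0.20 (SE, adjusted p = 0.000283), Myog, whose promoter holds a MEF3 element, by 0.72 ± 0.13 (0.00268) and Myf6 by 0.97 ± 0.22 (0.0122). Myog was below every control on 6 of 6 mutants and Myf6 on 2 of 6. The member that rose was Wnt4 (0.42, adjusted p = 0.0155), a signal of nephron formation, chosen for mention after its value was seen. Besides Myf5, Myog and Myf6, those that fell were Myod1 (−0.74, adjusted p = 0.0304) and Aldoa (−0.24, 0.0410), named after their values were seen. Over all 15 genes the average per array was −0.59 to −0.26 in mutants and −0.21 to 0.12 in controls, beside the lower muscle markers given above. This average leans on the large falls of Myf5, Myf6, Myod1 and Myog. Ckm, named after its value was seen, also lowers it (−0.77, adjusted p = 0.255), though it did not pass. In all, 9 of the 15 genes passed in neither direction.

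**Figure D5:**
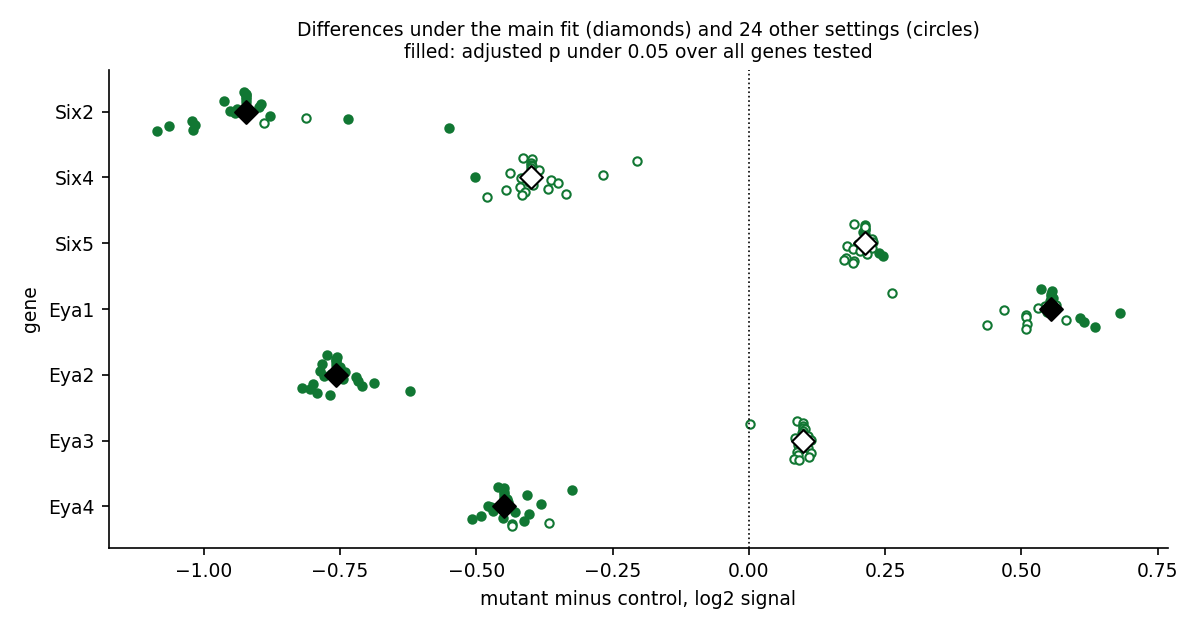
Difference between mutant and control in log2 signal (horizontal axis) of each gene (vertical axis) with all arrays (diamonds) and under 24 other settings (circles); filled symbols passed an adjusted p of 0.05 over all genes tested. No circle crosses 0, Eya2 is filled throughout, and Eya1 has open circles in 13 of 24.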

How the data were processed

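The deposited values are log2 signals per probe set. The authors used RMA, as the submitters' processing notes state, with a software and version that no source used here names. Their span of 2.57 to 15.09 points to base 2. RMA gives all arrays nearly the same distribution, so array medians lay between 6.09 and 6.17 and nothing was rescaled. Signals carry no counting depth, and precision is limited by how many arrays there are. Of 45101 probe sets, 64 controls were left out. The platform annotation gave 1 symbol for 34945, several for 932 and none for 9160. No build was named for the probe sets, so genes carry no coordinates; promoter coordinates are RefSeq's.

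For each gene lmFit and eBayes of limma 3.58.1 (R 4.3.3) gave a 2-sided test with genotype as the only term. The p values were adjusted by Benjamini-Hochberg over all 18193 genes, or all 45037 probe sets where stated, and a threshold of 0.05. The fit was tested on simulated data. Samples were grouped by title. The genes, lists and settings were chosen with earlier results of these data known. Beside the members, Smad4 and Myf5, up to 3 passing genes of each pathway list, the marker with the smallest p in a list and the 3 genes most like each member are named. Sobp, Wnt4, Myod1, Aldoa, Ckm, Six3 and Six6 were named outside this rule. Tendon markers (2 of 7 fell), cartilage (4 of 8 rose, 1 fell), Schwann cell (2 of 5 rose, 1 fell), endothelium (1 of 8 rose), macrophage (1 of 8 rose) and erythroid (0 of 5 passed) were also counted.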

Additional observations from a re-analysis of the deposited data

Results flagged for a closer look

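Control 2 stood apart from the other controls for the brightest probe set of Eya4, at a log2 signal of 10.31, the highest of its group. Its gap to the next value was 0.631 of the range of the group, above the 95% critical value of Dixon for 6 samples. Chance gives about 1 such group in 20, and 36 groups of 6 arrays were examined over the 18 probe sets. Without control 2 the Eya4 difference was −0.38 (adjusted p = 0.0243). Control 2 was also the highest control for the brightest probe set of Six4, at 10.24.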

How the results depend on the processing

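Over 24 other settings no difference of the 7 genes changed sign. With single arrays left out the differences ran from −1.06 to −0.74 for Six2, −0.50 to −0.27 for Six4, 0.18 to 0.25 for Six5, 0.47 to 0.68 for Eya1, −0.82 to −0.69 for Eya2, 0.09 to 0.12 for Eya3 and −0.51 to −0.38 for Eya4, and 1398 to 2103 genes passed in all, against 2020. Without mutants 1 and 2 together 877 genes passed, and Eya1 (0.44, adjusted p = 0.189) and Eya4 (−0.37) lost their calls; without control 3, mutant 4 and mutant 6, with fewer samples, 839 passed and Eya1 (0.51, adjusted p = 0.173) and Eya4 (−0.44, adjusted p = 0.0758) lost theirs. The unequal-variance test ended the calls of Six2 (−0.92) and Eya1 (0.56, adjusted p = 0.0907). Averaging a gene over its probe sets, which adds the dim ones, put Six4 at −0.21 (0.248), Eya1 at 0.26 (adjusted p = 0.168) and Eya3 at 0.00 (0.990). Six5 passed with arrays centred on their medians (0.21, adjusted p = 0.04995), dim probe sets left out (0.21), a trended and robust variance (0.21) and array weights (0.21). With the replicate number as a block Six5 passed (0.21, adjusted p = 0.0322), Eya1 had a smaller adjusted p (0.0117), no other call of the 7 changed and 1932 genes passed. Deviations of same-numbered samples correlated by −0.08 to 0.28, above 0.1 for each number except replicate 3, and the best match was the same number for 4 of 6. This is a hint of pairing from the data, but the labels give no shared litter or day, so the block was kept as an alternative. The causes of these changes were not tested, beyond what each setting itself removes.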
